A study of Rattus norvegicus with 24 samples.

Results

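Genes of amino acid supply and of the integrated stress response were followed in the nucleus accumbens (NAc), a part of the ventral striatum that takes part in reward. They were 10 of the 32545 genes in the table of values: the transporter genes Slc38a2, Slc38a1, Slc7a5, Slc3a2 and Slc7a11, the enzyme genes Asns and Chac1, and the regulator genes Atf4, Ddit3 and Trib3. The genes were chosen by name after Slc38a2 had been seen to be higher in Heroin-SA than in Saline-SA rats, so values of that comparison are given as a description, with no test. RNA was sequenced from 24 libraries, 4 for each of 6 groups of adult male Sprague Dawley rats, which were 8 weeks old when they arrived. In the injection experiment, rats received 5 intraperitoneal injections of saline or of 250 µg/kg lipopolysaccharide (LPS), a bacterial cell wall component that provokes an immune response, over 2 weeks. After a gap that the labels give as 1 week, they received heroin or saline by the same route for 5 days, with the heroin dose rising from 1 to 5 mg/kg, and they were killed 1 h after the last injection. The study's methods give a shorter gap and more sequenced samples per group than the labels do. They also give a locomotor session after the last injection, with death within 1 h of its end. The first word of a group's name gives the first treatment and the second word the second one: Saline-Saline and LPS-Saline rats went without heroin, and Saline-Heroin and LPS-Heroin rats received it. In the self-administration experiment, rats with a jugular catheter took heroin at 0.075 mg/kg per infusion (Heroin-SA) or saline (Saline-SA) for 6 h a day in 10 daily sessions and were killed directly after the last one. All rats of the self-administration experiment had therefore had surgery and operant sessions, and no group of that experiment received LPS. Per the study's methods, these rats lived singly after surgery on a reversed light cycle, and the injected rats in pairs on a normal one.

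The integrated stress response is a switch that cells use when amino acids run short, when unfolded proteins collect in the endoplasmic reticulum (ER), or under oxidative and viral stress. Kinases that sense these conditions phosphorylate the initiation factor eIF2, which slows translation in general but raises translation of ATF4 mRNA. The ATF4 protein then switches on genes for amino acid transporters, for amino acid synthesis and for tRNA charging, together with the transcription factor CHOP (Ddit3) and the feedback regulator Trib3. Much of the control of Atf4 itself lies in translation, which RNA levels do not show. In the brain, Slc38a2 and Slc38a1 encode the sodium-coupled neutral amino acid transporters SNAT2 and SNAT1, which carry glutamine and other small neutral amino acids into cells.

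ATF4 binds DNA together with C/EBP proteins at an element whose core letters are TGATGNAA, or TTNCATCA read from the other strand. All 10 genes had RefSeq promoter sequences of the rat assembly GRCr8, from 250 bases before to 50 bases after the annotated start, with a pair of promoters for Slc3a2. The letters occurred in the promoters of Slc38a1, Chac1 and Trib3, thus of 3 of 10 genes, and in 1332 of 33469 promoters (3.98%) of all genes. The stretches around the matches are printed 5′ to 3′ along the gene, because they set the pair of neighbouring transporter genes apart, and the capitals mark the matching letters. The match lay 142 bases before the start in Slc38a1 (chr7:129681510-129681569, minus strand), 167 bases before it in Chac1 (chr3:126795938-126795997, plus strand) and 21 bases before it in Trib3 (chr3:161275534-161275580, minus strand).
Slc38a1: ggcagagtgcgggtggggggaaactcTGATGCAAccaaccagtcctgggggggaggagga
Chac1: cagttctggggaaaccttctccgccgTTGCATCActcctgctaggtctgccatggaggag
Trib3: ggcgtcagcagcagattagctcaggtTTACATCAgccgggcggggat

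The letters were not found in the windows of Slc38a2, Slc7a5, Slc3a2, Slc7a11, Asns, Atf4 and Ddit3, which says nothing of elements outside these windows. For SLC38A2 of human cells, the amino acid response element on record lies in an intron. The 250 bases before the start of Slc38a2 (chr7:129742620-129742869, minus strand) are shown because this gene differed most between the self-administration groups. They were 72.4% G or C.
Slc38a2: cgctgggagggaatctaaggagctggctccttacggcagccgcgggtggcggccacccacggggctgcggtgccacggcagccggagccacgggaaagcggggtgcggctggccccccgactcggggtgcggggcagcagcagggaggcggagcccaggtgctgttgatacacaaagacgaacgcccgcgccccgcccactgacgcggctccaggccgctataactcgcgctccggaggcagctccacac

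Levels are given as FPKM, fragments per kilobase of exon scaled to a library size, and differences as log2 of FPKM + 0.1. This size was 0.940 times the reads on genes in Saline-SA replicate 3, the lowest, and 1.05 times in Saline-Saline replicate 1, the highest. The libraries held 12312878 to 18850240 reads on genes. Mitochondrial genes took 6.82% to 9.10% of these reads in the injection experiment and 10.0% to 15.9% in the self-administration experiment, with the highest shares in Saline-SA replicates 3 and 4 (15.9% and 14.1%). Of the 10 genes, 9 had a mean of at least 0.5 FPKM and were fitted with limma. Trib3 had a mean of 0.122 FPKM. A gene is called here when limma gave an unadjusted p of at most 0.05 and the difference was at least 1.3-fold, the limits the study used for its patterns. With these settings limma put 0 genes of the table at an adjusted p of 0.05 or less in each of the 9 comparisons, limma-voom also 0, and 607 to 1725 genes had an unadjusted p under 0.05, so these calls rest on unadjusted values. In tissue, fewer cells of a type and less RNA per cell cannot be told apart.

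Slc38a2 (ENSRNOG00000006305, rn6 chr7:138088649-138100841, minus strand, exonic length 4635 bases) had the largest difference of the 9 fitted genes between the self-administration groups. In Saline-SA rats it stood at 28.6, 31.5, 29.5 and 32.6 FPKM, and in Heroin-SA rats at 50.2, 48.4, 44.96 and 57.3 FPKM, each from 1878 to 3990 reads. The groups did not overlap, and their means were 30.5 ± 1.80 and 50.2 ± 5.18 FPKM (SD, n = 4), a ratio of 1.64 and a log2 difference of 0.71. The difference was 0.73 without both Saline-SA libraries of high mitochondrial share, and 0.65 without Heroin-SA replicate 4, the library with the highest level.

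In the injection experiment, Slc38a2 stood at 36.5, 41.1, 37.6 and 39.8 FPKM in Saline-Saline rats and at 50.5, 42.3, 41.9 and 41.6 FPKM in LPS-Saline rats. The groups did not overlap, although the log2 difference was small, 0.18 with a 95% interval of 0.01 to 0.36 (unadjusted p = 0.0435, exact permutation p = 0.0286, limma adjusted p = 0.738). The LPS-Saline group rested in part on its replicate 1, and the log2 difference was 0.11 without that library. Saline-Heroin rats stood at 33.7, 38.9, 44.2 and 40.0 FPKM, around the Saline-Saline values, with a log2 difference of 0.01 (95% interval -0.18 to 0.20).

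LPS-Heroin rats stood at 35.9, 39.3, 38.4 and 34.9 FPKM for Slc38a2, below all 4 LPS-Saline rats. The log2 difference from LPS-Saline was -0.24 (95% interval -0.42 to -0.07), with an unadjusted p of 0.0124, an exact permutation p of 0.0286 and a limma adjusted p of 0.977. The interaction, which compares the joint effect of LPS and heroin with the sum of their separate effects, was -0.25 on the log2 scale (95% interval -0.50 to -0.01, unadjusted p = 0.0448, limma adjusted p = 0.992). These differences stayed under 1.3-fold and did not pass the adjusted threshold. Over the 6 groups, mean Slc38a2 levels ran from Heroin-SA (50.2 FPKM) through LPS-Saline (44.1), Saline-Heroin (39.2), Saline-Saline (38.8) and LPS-Heroin (37.1) to Saline-SA (30.5). Each neighbour in this order overlapped the next except the last pair, since all 4 Saline-SA libraries lay below all 16 injection libraries. How many of all genes had this pattern was not counted. The experiments differed in surgery, route, housing, light cycle, handling and time of death, so the low Saline-SA level and the experiment cannot be told apart.

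**Figure D1:**
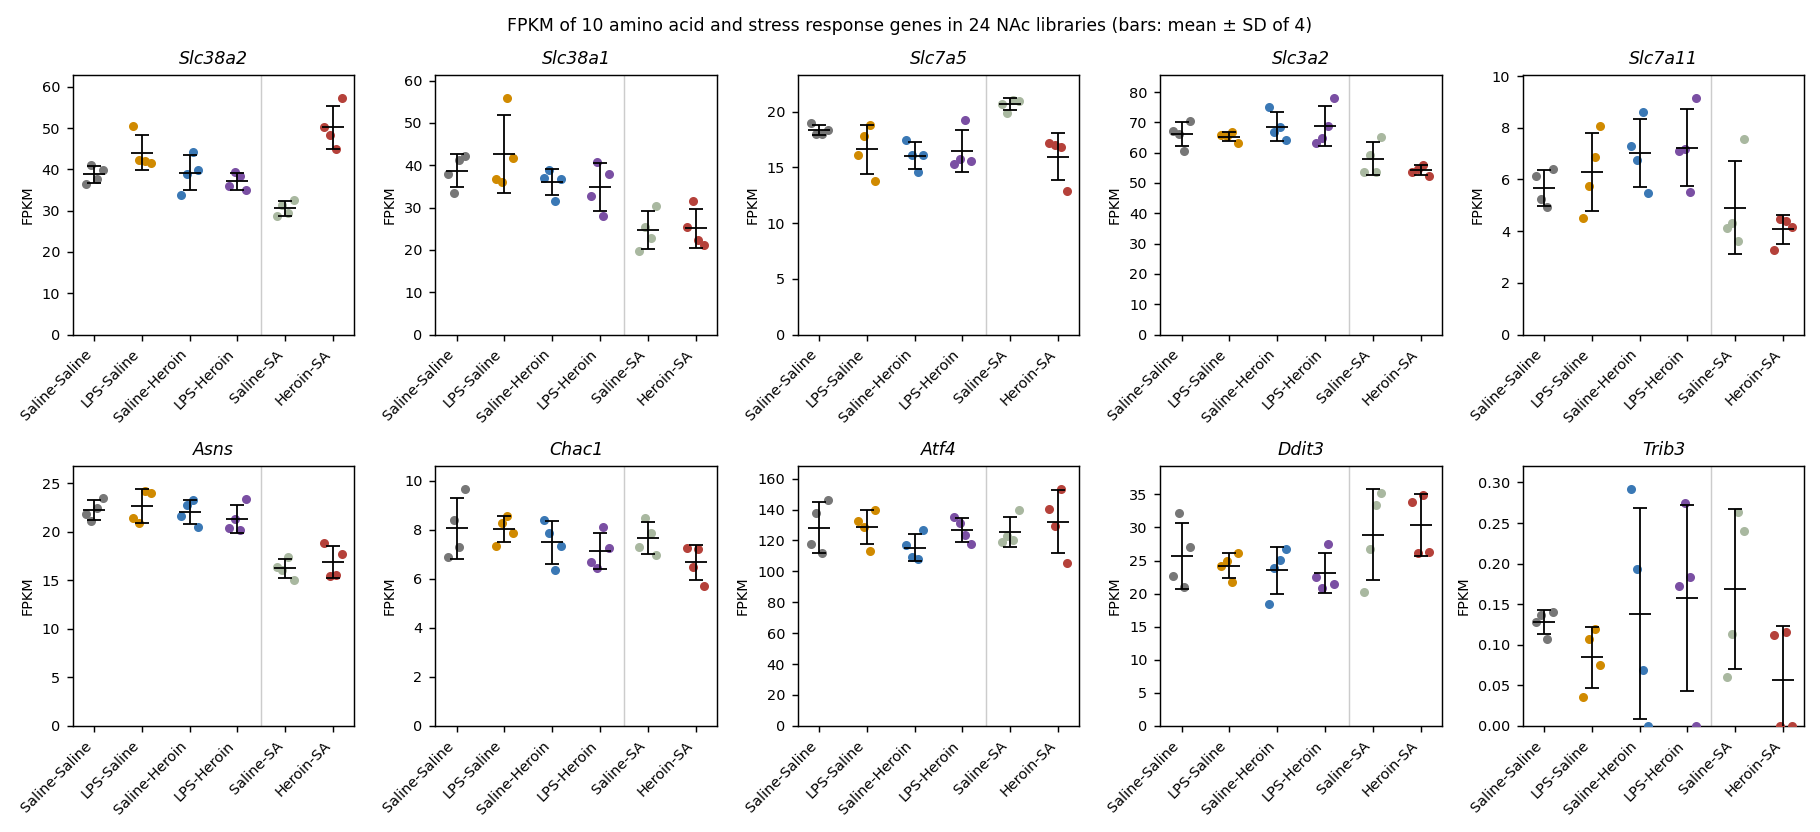
FPKM of the 10 genes in each of 24 NAc libraries, 1 panel per gene with its own linear axis from 0; points are libraries, black bars are the mean ± SD of 4, and a grey line parts the injection groups from the self-administration groups. Slc38a2 is lowest in the 4 Saline-SA libraries and highest on average in Heroin-SA, while Asns is lower in all 8 self-administration libraries than in all 16 injection libraries.

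Slc38a1 (ENSRNOG00000005291, rn6 chr7:137975549-138039984, minus strand), the gene of the related transporter SNAT1, lies 48664 bases from Slc38a2 on the same strand, with only a small U6 RNA gene annotated between them. Its levels were 19.8, 25.3, 22.9 and 30.5 FPKM in Saline-SA rats and 25.4, 31.5, 22.4 and 21.1 FPKM in Heroin-SA rats. These groups overlapped throughout, with a log2 difference of 0.03. Slc38a1 therefore did not share the difference of its neighbour. Its mean was 24.9 FPKM over the 8 self-administration libraries and 38.0 FPKM over the 16 injection libraries, a ratio of 0.654, with ranges of 19.8 to 31.5 and 28.0 to 55.8 FPKM that overlapped slightly.

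In the injection experiment, Slc38a1 averaged 38.7 ± 3.94 FPKM in the Saline-Saline and 42.6 ± 9.19 FPKM in the LPS-Saline group, and 36.0 ± 3.13 and 34.9 ± 5.63 FPKM in the groups given heroin without and with LPS (SD, n = 4). The highest value, 55.8 FPKM in LPS-Saline replicate 3, widened that group. The heroin main effect, which averages the difference over both LPS conditions, was -0.19 on the log2 scale, with a 95% interval of -0.40 to 0.02 (exact permutation p = 0.0918, limma adjusted p = 0.663). Drops of up to 0.40 on this scale thus lay within the interval. Over the groups the order was LPS-Saline, Saline-Saline, Saline-Heroin, LPS-Heroin, Heroin-SA and Saline-SA, and every neighbour overlapped the next.

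Slc7a5 (ENSRNOG00000018824, rn6 chr19:54693959-54722563, minus strand) encodes LAT1, the transporter that exchanges large neutral amino acids such as leucine across the membrane. It was opposite in direction to Slc38a2 in the self-administration experiment. Saline-SA rats stood at 20.7, 19.9, 21.1 and 21.0 FPKM and Heroin-SA rats at 17.2, 17.0, 16.8 and 12.8 FPKM. The groups did not overlap, the ratio of means was 0.773, and the log2 difference was -0.380, just past the 1.3-fold limit of 0.379. It was -0.28 without Heroin-SA replicate 4, the lowest library, and thus short of the limit.

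In the injection experiment, Slc7a5 had lower values after heroin given without LPS, short of the 1.3-fold limit. Saline-Saline rats stood at 19.0, 18.0, 18.0 and 18.4 FPKM and Saline-Heroin rats at 17.4, 16.1, 14.5 and 16.1 FPKM, with no overlap. The log2 difference was -0.19, with a 95% interval of -0.35 to -0.04 (unadjusted p = 0.0192, exact permutation p = 0.0286, limma adjusted p = 0.750). In LPS-Heroin rats the level was 15.3, 15.8, 19.3 and 15.6 FPKM, and 3 of 4 libraries lay below all Saline-Saline rats. That difference was -0.16 on the log2 scale (95% interval -0.35 to 0.03, exact permutation p = 0.143, limma adjusted p = 0.526). LPS-Saline rats, which received no heroin, were at 16.6 ± 2.20 FPKM (SD, n = 4). Their log2 difference from Saline-Saline was -0.15 (95% interval -0.37 to 0.07). Between LPS-Heroin and LPS-Saline rats it was -0.007 (95% interval -0.27 to 0.25). The heroin main effect was -0.10 (95% interval -0.24 to 0.04, exact permutation p = 0.175, limma adjusted p = 0.751). Over the groups Saline-SA was highest at 20.7 ± 0.546 FPKM, above Saline-Saline (18.3 ± 0.481) without overlap. How many of all genes had no overlap between these groups was not counted. The means of LPS-Saline, LPS-Heroin, Saline-Heroin and Heroin-SA followed between 16.6 and 15.96 FPKM with overlap of every neighbour.

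Slc3a2 (ENSRNOG00000018487, rn6 chr1:224906554-224921092, minus strand) encodes the heavy chain 4F2hc, with which both LAT1 and the cystine transporter of Slc7a11 pair at the cell surface. With a mean of 63.5 FPKM over all libraries, from 52.3 to 77.97, it was the most abundant of the 5 transporter genes per length. Its log2 differences in the injection experiment lay between -0.01 and 0.07, and the 95% interval of the heroin main effect was -0.04 to 0.16. Heroin-SA rats (54.2 ± 1.57 FPKM) and Saline-SA rats (58.0 ± 5.51) overlapped. Unlike its partner Slc7a5, it thus showed no difference larger than the spread between libraries there.

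Slc7a11 (ENSRNOG00000010210, rn6 chr2:139453774-139528162, minus strand) encodes xCT, which imports cystine for glutathione in exchange for glutamate. Its coefficient of variation within the groups was 12.2% to 36.6%, wider than that of Slc3a2 (2.42% to 9.60%). Saline-Saline rats stood at 6.14, 5.25, 4.95 and 6.39 FPKM, Saline-Heroin rats at 7.30, 6.74, 8.61 and 5.46, and LPS-Heroin rats at 7.10, 7.19, 5.50 and 9.15. In each heroin group 3 of 4 libraries exceeded every Saline-Saline library. The log2 differences were 0.29 (95% interval -0.05 to 0.63, exact permutation p = 0.114, limma adjusted p = 0.751) and 0.33 (95% interval -0.03 to 0.68, exact permutation p = 0.114, limma adjusted p = 0.493), the largest of any of the 9 genes in the injection experiment. Neither was called with all libraries, and each was called when 1 library was left out, Saline-Heroin replicate 4 (0.40) or LPS-Heroin replicate 3 (0.45). Without Saline-Heroin replicate 3 the first fell to 0.19, and without LPS-Heroin replicate 4 the second fell to 0.21. In the self-administration experiment Saline-SA rats stood at 4.12, 4.33, 3.62 and 7.57 FPKM and Heroin-SA rats at 3.25, 4.49, 4.39 and 4.14 FPKM. Those groups overlapped, and their log2 difference of -0.22 became 0.0076 without Saline-SA replicate 4, the highest library, and -0.06 without Saline-SA replicates 3 and 4.

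**Figure D2:**
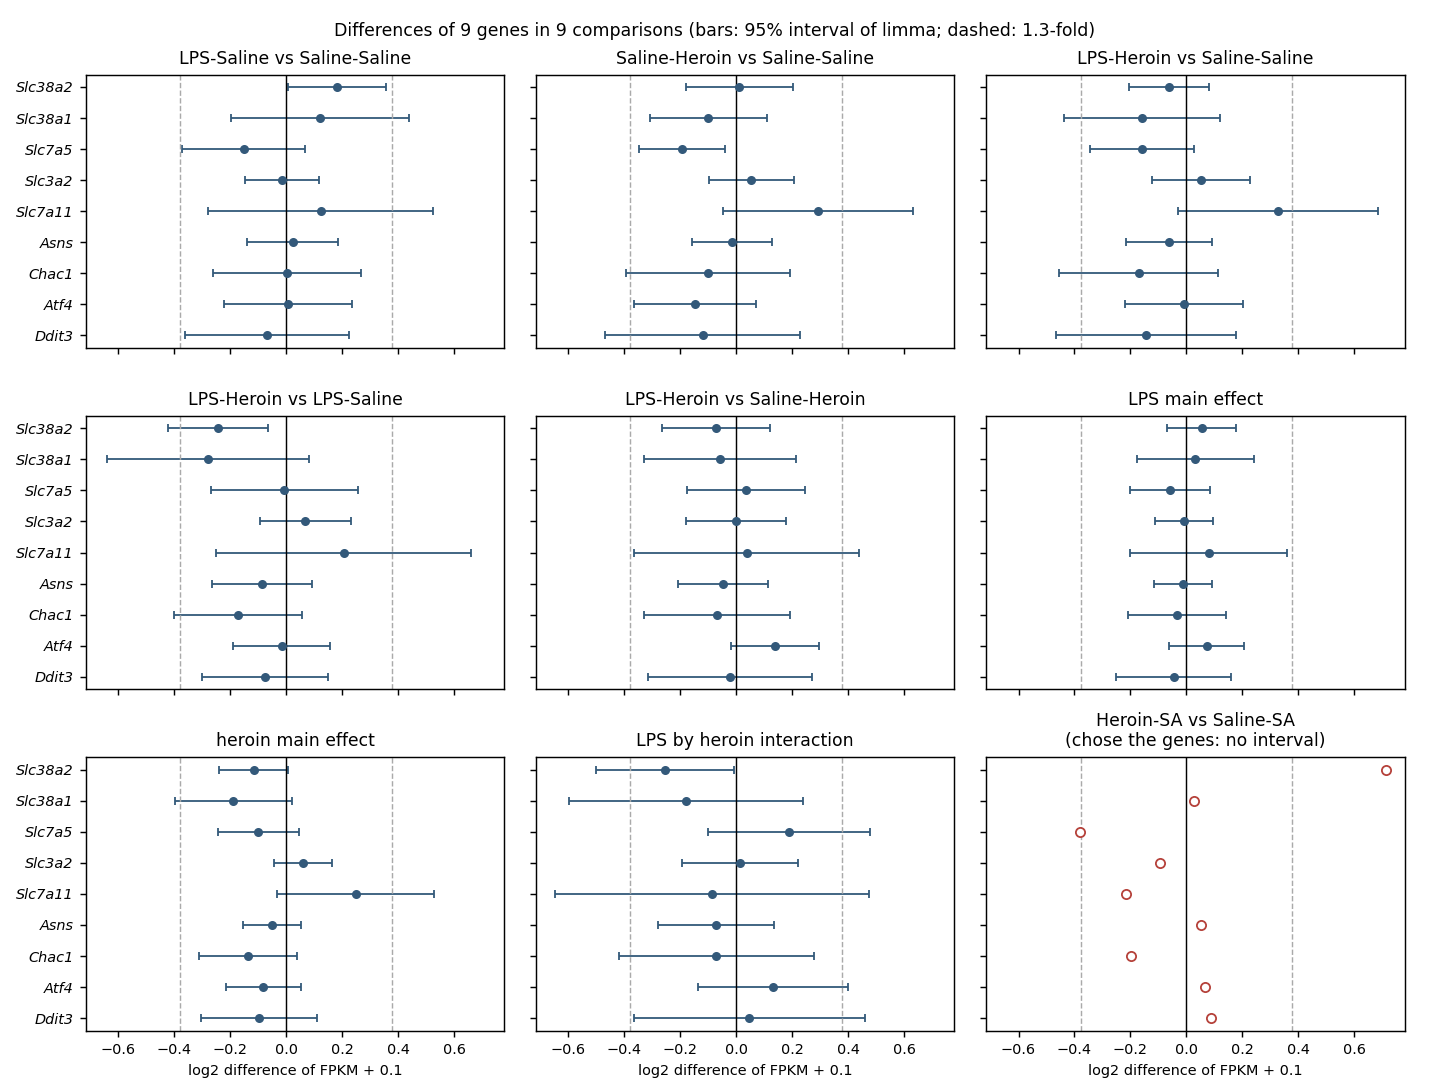
Differences of the 9 fitted genes on the log2 scale of FPKM + 0.1 in 9 comparisons; bars are 95% intervals of limma, dashed lines mark 1.3-fold, and open circles show Heroin-SA against Saline-SA, which chose the genes and has no interval. All points of the 8 injection comparisons lie inside the dashed lines, and Slc38a2 lies at 0.71 in Heroin-SA.

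Asns (ENSRNOG00000007546, rn6 chr4:33743364-33761163, minus strand) encodes asparagine synthetase, a classical target of ATF4 under amino acid shortage. Its coefficient of variation within the groups was 4.54% to 9.80%. Over the 16 injection libraries it ranged from 20.1 to 24.2 FPKM with a median of 21.7, and the 95% intervals of both main effects lay within -0.15 and 0.09 on the log2 scale. Saline-SA rats stood at 16.4, 16.1, 17.4 and 15.0 FPKM and Heroin-SA rats at 18.8, 15.4, 15.6 and 17.7 FPKM, with overlap. All 8 self-administration libraries lay below all 16 injection libraries, a pattern that 615 of 15118 genes (4.07%) of the table had. The ratio of the experiments' means was 0.751. Between the Saline-SA and Saline-Saline groups alone, Asns differed by -0.45 on the log2 scale, and the median gene by 0.01.

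Chac1 (ENSRNOG00000014387, rn6 chr3:111160205-111163425, plus strand), whose enzyme degrades glutathione and which ATF4 and CHOP induce, ranged from 5.72 to 9.64 FPKM over all libraries, from 135 to 243 reads. Heroin-SA rats averaged 6.67 ± 0.725 FPKM and Saline-SA rats 7.65 ± 0.656, with overlap and a log2 difference of -0.20. The heroin main effect in the injection experiment was -0.14 (95% interval -0.31 to 0.04, exact permutation p = 0.104, limma adjusted p = 0.702). All 6 groups overlapped their neighbours in the order of means, which ran from 8.06 FPKM in Saline-Saline to 6.67 FPKM in Heroin-SA.

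Atf4 (ENSRNOG00000017801, rn6 chr7:121480723-121482781, plus strand) was the most abundant of the 10 genes per length, at 105 to 153 FPKM. Its RNA did not follow Slc38a2. Saline-SA rats stood at 119, 123, 120 and 140 FPKM and Heroin-SA rats at 141, 130, 153 and 105 FPKM, so that Heroin-SA held both the highest and the lowest library of the table. Heroin-SA replicate 4, the lowest in Atf4, was the highest in Slc38a2. In the injection experiment the means were 128 ± 16.3 FPKM for Saline-Saline and 129 ± 11.2 FPKM for LPS-Saline rats, and 115 ± 8.59 and 127 ± 7.84 FPKM for rats given heroin without and with LPS (SD, n = 4). The 95% intervals of both main effects included 0 and lay inside the 1.3-fold limits, with -0.06 to 0.21 for LPS and -0.22 to 0.05 for heroin on the log2 scale.

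Ddit3 (ENSRNOG00000006789, rn6 chr7:70580198-70585084, plus strand), the gene of the stress transcription factor CHOP, overlaps the methionyl-tRNA synthetase gene Mars on the opposite strand, and whether reads were counted by strand is not given in the sources used here, so its level is uncertain. It stood at 20.2, 26.7, 33.4 and 35.3 FPKM in Saline-SA rats and at 33.9, 26.2, 34.8 and 26.3 FPKM in Heroin-SA rats. The groups overlapped with a log2 difference of 0.09. The highest Saline-SA values came from replicates 3 and 4, the libraries with the highest mitochondrial share, and without them the difference was 0.37. Means of the injection groups lay between 23.1 and 25.7 FPKM, all groups overlapped, and the heroin main effect was -0.10 on the log2 scale (95% interval -0.30 to 0.11).

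Trib3 (ENSRNOG00000007319, rn6 chr3:147813473-147819571, minus strand), a pseudokinase induced by ATF4 and CHOP in cells under strong stress, was near the detection limit. It had 0 to 10 reads per library and 6 to 20 reads per group of 4, and it was listed at 0 in Saline-Heroin replicate 4, LPS-Heroin replicate 4 and Heroin-SA replicates 2 and 4. At 3 reads as the limit of a count of 0, no fold is given. A fall or a small change could not be resolved at this depth.

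Of the 9 fitted genes, 0 were called in LPS-Saline against Saline-Saline rats (limma, 1 at an unadjusted p under 0.05, and 0 called with limma-voom on reads, where 0 were under 0.05), while 2.36% of all genes were called. In Saline-Heroin rats 0 were called (1 under 0.05, and 0 called with limma-voom, 1 under 0.05) against 3.07% of all genes. In LPS-Heroin against Saline-Saline rats 0 were called (0 under 0.05 with either tool, and 0 called with limma-voom) against 5.42%. In LPS-Heroin rats 0 were called against LPS-Saline (1 under 0.05 with either tool, 0 called with limma-voom) beside 2.29% of all genes, and 0 against Saline-Heroin (0 under 0.05 with either tool, 0 called with limma-voom) beside 2.2%. For the LPS main effect 0 were called (0 under 0.05 with either tool, 0 called with limma-voom) beside 1.75%, for the heroin main effect 0 (0 under 0.05 with either tool, 0 called with limma-voom) beside 2.45%, and for the interaction 0 (1 under 0.05 with either tool, 0 called with limma-voom) beside 2.31%. In these 72 tests, 4 had an unadjusted p under 0.05 (5.56%), and the smallest limma adjusted p was 0.493.

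Groups without overlap were found for 1 of the 9 genes between LPS-Saline and Saline-Saline (Slc38a2, beside 4.11% of all genes), for 1 between Saline-Heroin and Saline-Saline (Slc7a5, beside 3.39%), and for 1 between LPS-Heroin and LPS-Saline (Slc38a2, beside 2.58%). None was found between LPS-Heroin and Saline-Saline (6.86% of all genes) or between LPS-Heroin and Saline-Heroin (2.37%). The comparisons with Saline-Saline share those 4 control libraries, and both differences of Slc38a2 share the LPS-Saline libraries. In the self-administration experiment, which chose the genes, 2 of the 9 lay past the call limits beside 5.44% of all genes. The same 2, Slc38a2 and Slc7a5, had groups without overlap beside 6.8%. The call limits use limma's p, and Slc38a2 was picked for its rise there, so these counts are a description and no test. The median difference of the 9 genes there was 0.03 on the log2 scale, beside 0.01 over all genes.

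Genes around this set were followed in 8 lists, which were chosen with results of these data known. In the self-administration experiment, 0 of 22 fitted genes among the other targets of the integrated stress response were past the call limits upwards and 1 downwards, with a median of -0.04 on the log2 scale. Of all genes, 3.03% were past the limits upwards and 2.41% downwards, so the counts of this list are near the background. The gene that was lower was Cth, the enzyme that makes cysteine from cystathionine, at 1.39 ± 0.326 FPKM in Heroin-SA and 2.27 ± 0.576 in Saline-SA rats (SD, n = 4, overlapping groups, log2 difference -0.66). It was no longer past the limits without Saline-SA replicate 2 (-0.59), Saline-SA replicate 3 (-0.55), Heroin-SA replicate 2 (-0.50) or both Saline-SA replicates 3 and 4 (-0.54). The 12 aminoacyl-tRNA synthetase genes, which ATF4 raises together with Asns, had 0 genes past the limits and a median of 0.02. The 16 genes of the eIF2 kinases, eIF2, eIF2B and their control had 0 past the limits and a median of -0.01, and the 20 fitted genes of amino acid sensing by mTORC1 had 0 and a median of 0.02. Beside these values, all genes had a median of 0.01.

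The ER chaperones, whose genes answer to unfolded proteins through XBP1 and ATF6, were the list that lay highest in Heroin-SA. Of 21 genes, 5 were past the limits upwards (Sdf2l1, Pdia6, Xbp1, Hspa5 and Dnajc3) and 0 downwards, beside 3.03% and 2.41% of all genes, and 19 of 21 differences were above 0, with a median of 0.30. Sdf2l1 stood at 21.1, 17.3, 22.5 and 28.4 FPKM in Heroin-SA and at 14.3, 12.6, 12.9 and 15.5 FPKM in Saline-SA rats, without overlap. Pdia6, a protein disulfide isomerase, was at 86.7 ± 7.70 and 64.4 ± 7.32 FPKM (SD, n = 4), also without overlap, and was no longer past the limits without Saline-SA replicates 3 and 4 (0.32 on the log2 scale). Xbp1, the transcription factor of this response, was at 102 ± 11.6 and 75.7 ± 9.53 FPKM with slight overlap. Since the members were chosen from the same libraries, these values describe the comparison and are not independent of it.

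Among the other amino acid transporters, 2 of 31 were past the limits upwards in Heroin-SA and 0 downwards, a share near that of all genes (3.03% and 2.41%). Slc1a2, the main glutamate transporter of astrocytes, stood at 36.3, 61.0, 29.9 and 71.1 FPKM in Heroin-SA and at 27.9, 30.4, 27.7 and 26.5 FPKM in Saline-SA rats, so that the groups overlapped and the Heroin-SA rats were spread widely. Without Saline-SA replicates 3 and 4 it was no longer past the limits (0.68 on the log2 scale). Slc6a20, a proline transporter, was at 3.496 ± 1.09 and 2.25 ± 0.230 FPKM (SD, n = 4). It was no longer past the limits in 4 of 8 fits that left out a library (Saline-SA replicates 2 or 3, Heroin-SA replicates 1 or 4), with log2 differences of 0.39 to 0.72 over the 8 fits, nor without both Saline-SA replicates 3 and 4. In the list of osmotic stress, to which Slc38a2 also answers, Sgk1, a kinase induced by glucocorticoids and by osmotic stress, was past the limits at 55.5 ± 19.1 against 36.2 ± 2.91 FPKM, with overlap. It was no longer past them without Saline-SA replicate 2 (0.52 on the log2 scale), without Heroin-SA replicate 4 (0.35), and without Saline-SA replicates 3 and 4 (0.55). Among the 11 fitted NRF2 targets, the genes of the oxidative stress response, 0 were past the limits.

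**Figure D3:**
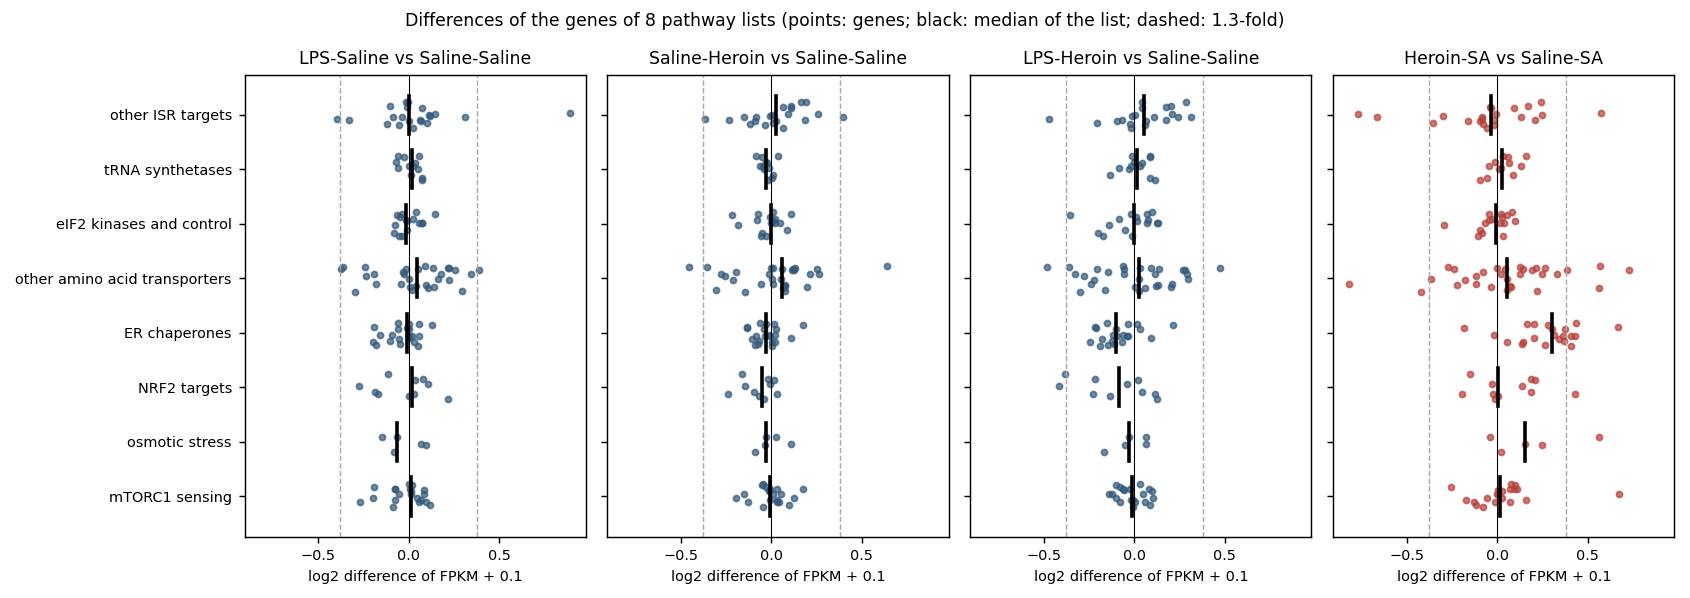
Differences on the log2 scale of FPKM + 0.1 of the fitted genes of 8 pathway lists in the 3 comparisons with Saline-Saline and in Heroin-SA against Saline-SA; points are genes, black bars are the medians of the lists, and dashed lines mark 1.3-fold. The median of the ER chaperones is 0.30 in Heroin-SA and between -0.10 and -0.01 in the other 3 comparisons, while the medians of the other integrated stress response targets lie between -0.04 and 0.05.

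In the injection experiment, few genes of these lists were called. In 5 of the 8 lists, namely tRNA synthetases, eIF2 kinases and control, ER chaperones, osmotic stress and mTORC1 sensing, limma called 0 genes in any of 8 comparisons, with 25 of 592 tests (4.22%) at an unadjusted p under 0.05 and 0 called by limma-voom. Of all genes, 1.75% to 5.42% were called and 4.02% to 11.3% had an unadjusted p under 0.05 in these comparisons. These 5 lists were grouped because they had 0 calls. A call needs an unadjusted p of at most 0.05, so a larger share of such tests in the lists with calls follows in part from this grouping. Tests at an unadjusted p under 0.05 were 15 of 169 for the other integrated stress response targets, 25 of 240 for the other amino acid transporters and 14 of 80 for the NRF2 targets. The ER chaperones, high in Heroin-SA, had medians between -0.10 and -0.01 in the injection experiment.

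Mthfd2, a mitochondrial enzyme of folate metabolism and an ATF4 target, was called lower in both LPS groups against Saline-Saline. It stood at 4.22, 4.90, 3.87 and 4.33 FPKM in Saline-Saline and at 3.05, 3.69, 3.72 and 2.16 FPKM in LPS-Heroin rats, without overlap. The log2 difference was -0.47 ± 0.18 (SE, exact permutation p = 0.0286, limma adjusted p = 0.378). For LPS-Saline rats (3.30 ± 0.595 FPKM) it was -0.39 ± 0.15 (SE, exact permutation p = 0.0571, limma adjusted p = 0.736), and 1 of 4 libraries reached into the Saline-Saline range. Saline-Heroin rats, which received no LPS, were at 3.40 ± 0.895 FPKM (SD, n = 4), a log2 difference of -0.37 that was not called, and Mthfd2 was not called for the LPS main effect. Leaving out a library in turn lost the call in 4 of 8 fits for LPS-Heroin and in 5 of 8 for LPS-Saline. No other gene of this list was called in these comparisons, with 21 fitted for LPS-Saline and 20 for LPS-Heroin.

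Eif4ebp1, which encodes a brake on translation initiation and is another ATF4 target, was higher in Saline-Heroin than in Saline-Saline rats, at 7.20 ± 1.41 against 5.43 ± 0.937 FPKM (SD, n = 4). Its log2 difference was 0.39, with overlapping groups (exact permutation p = 0.0571, limma adjusted p = 0.750), and the call was lost in 6 of 8 fits that left out a library. Phgdh, the entry enzyme of serine synthesis, was called in the interaction. Its mean was 55.2 ± 4.52 FPKM in control rats, 44.4 ± 7.70 FPKM after LPS alone, 47.0 ± 4.34 FPKM after heroin alone and 52.8 ± 5.72 FPKM after both (SD, n = 4), so that each treatment alone was lower and both together were near the control level. The interaction was 0.49 ± 0.17 on the log2 scale (SE, unadjusted p = 0.0107, limma adjusted p = 0.992), and it was no longer called without LPS-Saline replicate 2, the lowest library, with a value of 0.36.

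Of the other amino acid transporters, Slc6a9 was called lower in both heroin groups against Saline-Saline. It encodes GlyT1, the glycine transporter that is found mainly on astrocytes. Saline-Saline rats stood at 56.7, 56.8, 43.6 and 54.0 FPKM and LPS-Heroin rats at 37.3, 37.4, 41.1 and 34.8 FPKM, without overlap. The log2 difference was -0.48 ± 0.09 (SE, exact permutation p = 0.0286, limma adjusted p = 0.163). In Saline-Heroin rats it was -0.45 ± 0.15 (SE, exact permutation p = 0.0857, limma adjusted p = 0.750), and the call was lost without Saline-Heroin replicate 1, with a value of -0.35. LPS-Saline rats, which received no heroin, were at 40.9 ± 3.14 FPKM (SD, n = 4), a log2 difference of -0.36 just short of the limit, and Slc6a9 was not called for the heroin main effect. Slc6a9 overlaps Ccdc24 on the opposite strand, so its level is uncertain in the same way as that of Ddit3.

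Slc36a1, a proton-coupled transporter of small amino acids on lysosomes and the cell surface, was higher in LPS-Heroin rats (13.99 ± 2.60 FPKM) than in Saline-Saline (9.95 ± 0.957) and Saline-Heroin rats (10.1 ± 2.28). The log2 difference was 0.47 in both comparisons, with limma adjusted p-values of 0.250 and 1.00. Slc7a1, a transporter of arginine and lysine, was at 5.09 ± 1.02 FPKM in LPS-Heroin and 6.91 ± 0.587 in LPS-Saline rats, a log2 difference of -0.45 (exact permutation p = 0.0571, limma adjusted p = 0.977) that was -0.35 and not called without LPS-Heroin replicate 4. Of the NRF2 targets, Hmox1 and Nqo1 were lower in LPS-Heroin than in Saline-Saline rats, with log2 differences of -0.41 and -0.38 (limma adjusted p = 0.267 and 0.352). They were the 2 of 10 fitted genes called there, beside 5.42% of all genes. An unadjusted p under 0.05 was found for 4 of the 10, beside 11.3% of all genes. Over all 8 lists, 3.73% of the fitted genes were called in LPS-Heroin against Saline-Saline, beside 5.42% of all genes.

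**Figure D4:**
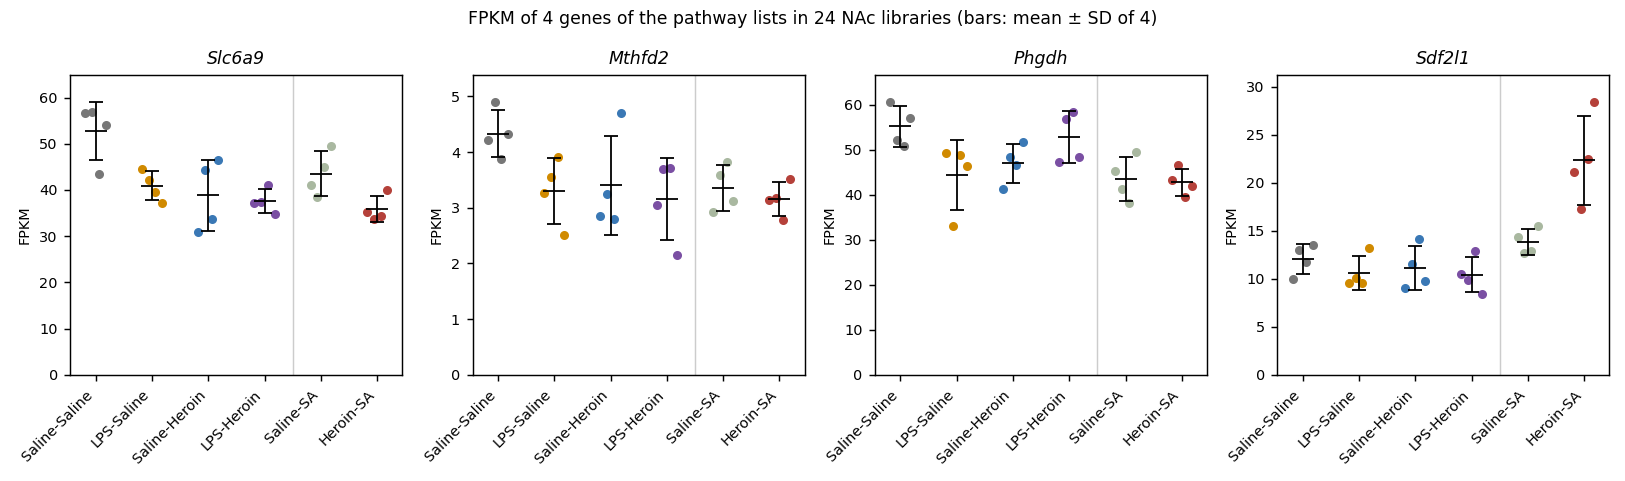
FPKM of Slc6a9, Mthfd2, Phgdh and Sdf2l1 in each of 24 NAc libraries, with linear axes from 0; points are libraries and black bars the mean ± SD of 4. The LPS-Heroin libraries of Slc6a9 and Mthfd2 lie below all Saline-Saline libraries, and the Heroin-SA libraries of Sdf2l1 lie above all others.

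Over the 24 libraries, the 5 genes whose log2 levels followed Slc38a2 most closely were not members of the set. They were Chordc1 (Pearson r = 0.797), a partner of the chaperone HSP90, Hsph1 (0.789), a heat shock chaperone, S100pbp (0.741), Pdia6 (0.738) and P4ha1 (0.728), a prolyl hydroxylase of collagen. The libraries share their group, and with group means removed the values fell to 0.580, 0.562, 0.383, 0.267 and 0.606. The genes were picked for their likeness in these same libraries, so these values are a description. Chordc1 averaged 33.3 ± 4.12 FPKM in Heroin-SA and 20.5 ± 1.55 in Saline-SA rats (SD, n = 4), and Hsph1 averaged 171 ± 25.3 and 125 ± 9.59 FPKM.

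Within the set, no member had a Pearson r with Slc38a2 above 0.192 (Ddit3, 0.313 with group means removed), and Slc7a5 had the lowest, -0.652, which was -0.402 with group means removed. Of all pairs of the fitted genes, the highest r with group means removed were those of Slc3a2 with Slc7a11 (0.577), Atf4 with Ddit3 (0.557), Slc7a5 with Chac1 (0.534) and Slc38a1 with Slc7a11 (0.466), each over 24 libraries. These pairs were picked for their r, so the values are a description and no test. The r of Slc38a2 with Atf4 with group means removed was -0.109.

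**Figure D5:**
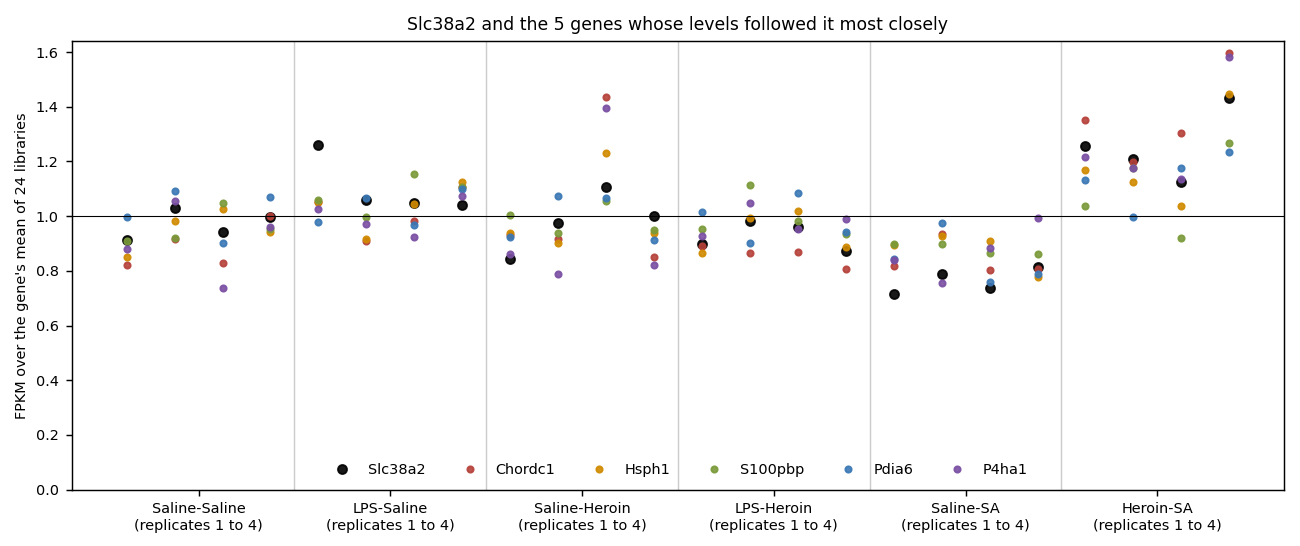
FPKM of Slc38a2 and of the 5 genes most like it over each gene's mean of 24 libraries, on a linear axis from 0, by group and replicate 1 to 4 from left to right; points are libraries. The Saline-SA points of Slc38a2 all lie below 1 and its Heroin-SA points all lie above it, and Heroin-SA replicate 4 is the highest library for Slc38a2, Chordc1, Hsph1, S100pbp, Pdia6 and P4ha1.

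Markers of striatal medium spiny neurons were present in every library, with a summed level of 1228 to 3266 FPKM over 10 of 10 genes, and no defining marker of any list was at 0 in all libraries. In Heroin-SA against Saline-SA, 1 of the markers of 8 cell types was past the limits, Slc1a2. Summed microglial markers ranged from 122 to 165 FPKM in Saline-SA and from 130 to 162 FPKM in Heroin-SA rats. Red blood cell genes ranged from 597 to 4649 and from 655 to 3080 FPKM. In Saline-Heroin against Saline-Saline, where Slc7a5 had lower values, 2 of 5 red blood cell genes and 2 of 8 fibroblast and mural genes (Acta2, Col1a1) were called upwards and 1 of 8 microglial genes (Cx3cr1) downwards. The summed red blood cell genes ranged there from 447 to 1743 FPKM against 408 to 598, and the fibroblast and mural genes from 58.3 to 91.7 against 42.1 to 81.6. In LPS-Heroin against Saline-Saline, where Mthfd2 and Slc6a9 were lower, 4 of 5 red blood cell genes were called upwards, with sums of 579 to 851 FPKM, and 1 of 8 microglial genes (Tmem119). The microglial list as a whole went the other way there, with a median of -0.15 on the log2 scale. Its sums were 140 to 166 against 143 to 191 FPKM. In LPS-Heroin against LPS-Saline, where Slc38a2 had lower values, 2 of 8 microglial genes (P2ry12, Itgam) were called downwards, with sums of 140 to 166 against 151 to 172 FPKM. In LPS-Heroin against Saline-Heroin, where Slc36a1 was higher, 3 of 8 fibroblast and mural genes (Rgs5, Acta2, Col1a1) were called, 1 upwards and 2 downwards, with sums of 35.2 to 79.0 against 58.3 to 91.7 FPKM. In the interaction, where Phgdh was called, 1 of 8 microglial genes (Cx3cr1) was called upwards. For the heroin main effect, 4 of 5 red blood cell genes were called upwards, with a median of 0.66 on the log2 scale. Beside these counts, 1.75% to 5.42% of all genes were called in the injection comparisons and 5.44% in Heroin-SA against Saline-SA. The summed choroid plexus and ependyma markers reached 351 FPKM in a Saline-Saline library and at most 32.6 FPKM in the other injection groups. Between Saline-SA and Saline-Saline, where Slc7a5 was higher in Saline-SA, summed endothelial markers ranged from 86.1 to 112 FPKM against 69.7 to 78.2 FPKM. These sums did not overlap, while those of the other cell types did. The part of these cells in the results was not tested.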

How the data were processed

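RNA of the NAc was measured in 24 libraries, 4 biological replicates per group, and samples were grouped by GEO's labels. Directional libraries were made from 300 ng of total RNA with an RNA integrity number of at least 7. Per the submitters' processing notes, reads were trimmed with fastp, aligned with HISAT2 to rn6 and counted with featureCounts, versions not given in the sources used here, and the authors deposited FPKM values for 32545 genes. The authors tested counts with DESeq2. As the values are FPKM, limma 3.58.1 in R 4.3.3 (limma-trend on log2(FPKM + 0.1), genes with a mean of at least 0.5 FPKM over the libraries fitted, no covariate) was used in its place. Adjusted p-values are limma's after Benjamini-Hochberg over all genes fitted. The LPS and heroin main effects and the interaction were fitted in 16 libraries and pairs of groups in 8. Called means an unadjusted p of at most 0.05 and at least 1.3-fold. For 4 against 4 libraries the exact two-sided permutation test of the mean log2 difference cannot go below 0.0286, and main effects were permuted within the other treatment. Fold changes on this scale understate low genes.

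Multiplied by gene length, the FPKM values of a library all fell on whole steps (100% of values, tolerance 0.01 reads), which gave reads for limma-voom and for depth. Precision follows these reads, and intervals cover the spread between rats. As alternatives, the pseudocount was set to 1 or to 0.01, the filter was dropped or raised to a mean of 1 FPKM, libraries were scaled to equal medians or quantile normalized, the 6 groups shared a fit, limma-voom was run on the reads, the replicate number was a block, and each library was left out. Leaving out both Saline-SA libraries of high mitochondrial share was added after seeing the data. The fits were tested on simulated data. Genes named are the 10 members, up to 3 called genes of each pathway list per comparison by smallest p, and the 5 most like Slc38a2; Hspa5 and Dnajc3, named to complete a count, and the called markers were chosen after their values were seen. The members and lists were chosen with earlier results of these data known. The list genes Slc5a3, Rragb, Castor1 and Castor2 were not analysed here.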

Additional observations from a re-analysis of the deposited data

Results flagged for a closer look

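In groups of 4, the highest or lowest library stood apart from the other 3 by more than Dixon's 95% limit for the gap as a share of the range for 3 of 54 combinations of gene and group, and chance flags about 1 in 20. Slc38a2 in LPS-Saline replicate 1 was at 50.5 FPKM, with the other 3 libraries between 41.6 and 42.3 FPKM. Slc7a5 in LPS-Heroin replicate 3 was at 19.3 FPKM, with the others between 15.3 and 15.8 FPKM. Slc7a5 in Heroin-SA replicate 4 was at 12.8 FPKM, with the others between 16.8 and 17.2 FPKM.

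The joint effect of LPS and heroin differed from the sum of their separate effects, by limma's interaction term before adjustment, for Slc38a2 (-0.25 on the log2 scale, unadjusted p = 0.0448, limma adjusted p = 0.992) and for Phgdh (0.49, unadjusted p = 0.0107, limma adjusted p = 0.992). Neither passed the adjustment over all genes.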

How the results depend on the processing

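The number of members called stayed at 0 in all 8 injection comparisons under every alternative except leaving out single libraries, and at 2 in Heroin-SA against Saline-SA except with a pseudocount of 1 and without both Saline-SA libraries of high mitochondrial share, an alternative added after seeing the data, where it was 1 (Slc38a2). When each library was left out in turn, the members called ran from 0 to 1 in Saline-Heroin and in LPS-Heroin against Saline-Saline. There Slc7a11 was called at 0.40 without Saline-Heroin replicate 4 and at 0.45 without LPS-Heroin replicate 3. In Heroin-SA they ran from 1 to 2. Slc7a5 was no longer past the limits without Saline-SA replicate 3 (-0.37), Saline-SA replicate 4 (-0.37) or Heroin-SA replicate 4 (-0.28). The difference of Slc38a2 in Heroin-SA ran from 0.65 to 0.76 over these fits. Values near 0 changed sign in some of them: Slc38a2 in Saline-Heroin against Saline-Saline ran from -0.049 to 0.081, and the LPS main effect of Asns from -0.035 to 0.0061.

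Among the called list genes, Slc6a9 and Slc36a1 in LPS-Heroin against Saline-Saline kept their calls in all 8 fits that left out a library. In that comparison Hmox1 was not called without Saline-Saline replicate 2 or LPS-Heroin replicate 4 (lowest and highest difference over the 8 fits -0.47 and -0.34), Nqo1 without replicates 1 or 3 of either group (-0.49 and -0.30) and Mthfd2 without Saline-Saline replicates 2 or 4 or LPS-Heroin replicates 1 or 4 (-0.56 and -0.31). Slc36a1 against Saline-Heroin was not called without Saline-Heroin replicates 2 or 4 or LPS-Heroin replicates 1 or 2 (0.38 and 0.60), Mthfd2 in LPS-Saline without Saline-Saline replicates 1, 2 or 4 or LPS-Saline replicates 1 or 4 (-0.48 and -0.27), and Eif4ebp1 in Saline-Heroin kept its call only without Saline-Saline replicate 4 or Saline-Heroin replicate 2 (0.28 and 0.50). With a pseudocount of 1, which shrinks low genes, Mthfd2, Eif4ebp1, Hmox1 and Nqo1 were under the limits, and with limma-voom Eif4ebp1.

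The replicate number as a block left the members called at 0 in the injection comparisons and at 2 in Heroin-SA. With this block, only Cth (-0.66) of the list genes named was no longer past the limits. With all 6 groups in one fit, Slc6a20 (0.57) was no longer past them. Same-numbered libraries shared only a number: over 24 pairs their deviations correlated between -0.15 and 0.15, and 7 of 24 correlated best with their own number. Over all genes, no filter on low values gave 581 called genes in place of 357 in LPS-Saline against Saline-Saline, 548 in place of 345 in LPS-Heroin against LPS-Saline, 524 in place of 332 against Saline-Heroin, and 514 and 627 in place of 265 and 371 for the LPS and heroin main effects and 565 in place of 349 for the interaction. Leaving out 1 library gave 624 called genes in LPS-Saline against Saline-Saline and 423 for the LPS main effect (without LPS-Saline replicate 3), and 726 in place of 465 in Saline-Heroin against Saline-Saline (without Saline-Heroin replicate 2). Genes at an adjusted p of 0.05 or less numbered 1 to 7 without the filter in 6 of the comparisons and 69 in Heroin-SA with all 6 groups in one fit. That fit put 39.4% of called genes higher in LPS-Saline against Saline-Saline, in place of 51.3%. Leaving out both Saline-SA libraries gave 543 in place of 817 in Heroin-SA. The cause of these shifts was not tested. Depth leaves Trib3 unresolved, with at most 10 reads in a library.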
